A study of Mus musculus with 2 samples.

Results

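Keratins are the intermediate filament proteins of epithelial cells, and the 10 keratin genes described here were chosen by name: the simple keratins Krt7, Krt8, Krt18 and Krt19 and the stratified keratins Krt4, Krt5, Krt13, Krt14, Krt15 and Krt17. They were matched by symbol to the NCBI gene numbers of the deposited tables, and all 10 were found among 41709 genes. Whole-lung polyadenylated RNA of embryonic day E14.5 C57BL/6 mice, an age of active airway branching, was sequenced from 1 library with the genotype label Prmt5 knockdown and 1 control library, and the design text calls the control wildtype. Each library pooled 7 lungs. The title of the knockdown library names Shh as well as Prmt5, and the labels do not say by which means or in which cells either gene was altered.

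A keratin filament is built from pairs of a type II and a type I chain in equal amounts, so each epithelium makes at least 1 gene of each type. Among these genes Krt4, Krt5, Krt7 and Krt8 encode type II chains, and Krt13, Krt14, Krt15, Krt17, Krt18 and Krt19 encode type I chains. Krt8 with Krt18 is the pair of simple, single-layered epithelia, joined by Krt7 and Krt19 in ducts and airways. Krt5 with Krt14 is the pair of the basal layer of stratified epithelia such as skin, oesophagus and trachea, where Krt15 and Krt17 are also made, and Krt4 with Krt13 is the pair of the upper layers of internal stratified epithelia such as the oesophagus. The lung epithelium at this stage is mostly simple. Mesothelium, the outer lining of the lung, and liver cells also make simple keratins, and thymus epithelium makes both kinds.

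The knockdown library held 25829281 counted reads and the control library 22581490. No test between genotypes can be made from 1 library each, no p-value is printed, and every interval printed here is a 95% counting interval that leaves out differences between pools. A gene was called measured with at least 50 reads in 1 library, and higher or lower when the ratio of knockdown over control reached 1.5-fold in either direction and its interval excluded a ratio of 1. Prmt5 had 2127 reads in the knockdown library and 2704 in the control, a log2 ratio of -0.43 (-0.51 to -0.35) that did not pass the rule. The libraries also differed in transcripts of other organs. All 9 liver markers, all 8 heart markers and all 6 skeletal muscle markers were higher, with summed levels of 6023 FPKM (reads scaled to gene length and library total) in the knockdown library and 36.4 FPKM in the control for liver, 4484 and 124 FPKM for heart, and 614 and 15.5 FPKM for skeletal muscle. None of these 23 markers was at 0 reads in either library. All 14 lung epithelial lineage genes were lower, with summed levels of 134 FPKM in the knockdown library and 933 FPKM in the control. Beside these counts, 20.7% of all measured genes were higher and 12.3% lower. In whole lung, fewer cells of a type and less RNA per cell cannot be told apart.

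The contrast between both keratin classes was large. All 6 stratified keratins were higher in the knockdown library, between 3.22-fold (Krt4) and 11.6-fold (Krt5), whereas 3 of the 4 simple keratins did not pass the rule and Krt7 was 1.54-fold lower. Of the 14569 measured genes 20.7% were higher, 12.3% were lower and 33.0% passed in either direction. The lowest interval bound of any stratified keratin, a log2 ratio of 1.27 for Krt4, lay above the highest bound of any simple keratin, 0.31 for Krt19. Summed over their genes, the stratified keratins had 3979 reads in the knockdown library and 732 in the control, a log2 ratio of 2.36 (2.24 to 2.47). The simple keratins had 8749 reads in the knockdown library and 8976 in the control, a log2 ratio of -0.12 (-0.16 to -0.08). The median log2 ratio was 2.35 over the stratified and -0.00 over the simple keratins, against -0.01 over all measured genes.

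**Figure D1:**
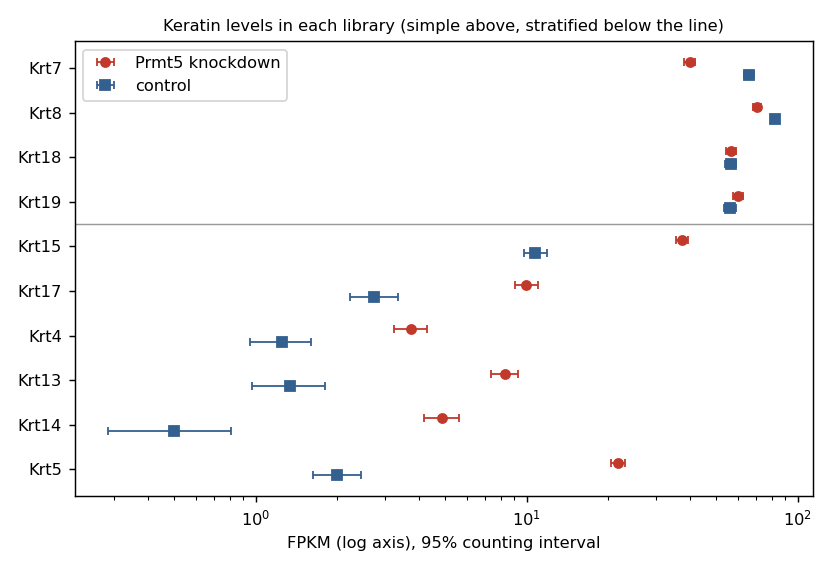
Level of each keratin in the Prmt5 knockdown library (circles) and the control library (squares), as FPKM on a log axis with 95% counting intervals, simple keratins above the line and stratified keratins below it. The 4 simple keratins sit between 39.9 and 70.4 FPKM in the knockdown library and between 56.2 and 82.4 FPKM in the control, and all 6 stratified keratins are further right in the knockdown library.

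Promoters are shown for the 5 keratins with a listed window at the gene start, from RefSeq on GRCm38.p6 (the RefSeq name of mm10). Each has 250 bases before and 50 bases after the transcript start, 5′ to 3′ along the gene's strand. Krt5 (chr15:101712856-101713155, minus strand) and Krt13 (chr11:100121517-100121816, minus strand) are a basal and an upper-layer stratified keratin. Krt7 (chr15:101412153-101412452, plus strand) is the simple keratin that was lower, and Krt8 (chr15:102004293-102004592, minus strand) with Krt18 (chr15:102027966-102028265, plus strand) is the simple pair that did not pass the rule. Capitals mark the TATA-like letters ATAAAA or TATAAA on the printed strand and, in Krt5, a match to the half-site of the p53 family, to which the basal-layer factor p63 belongs.
Krt5: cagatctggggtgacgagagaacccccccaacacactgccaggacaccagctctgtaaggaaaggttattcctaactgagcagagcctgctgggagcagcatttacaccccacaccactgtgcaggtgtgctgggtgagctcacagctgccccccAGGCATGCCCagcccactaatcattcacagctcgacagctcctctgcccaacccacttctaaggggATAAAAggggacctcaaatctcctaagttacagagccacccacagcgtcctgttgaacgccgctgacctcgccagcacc
Krt13: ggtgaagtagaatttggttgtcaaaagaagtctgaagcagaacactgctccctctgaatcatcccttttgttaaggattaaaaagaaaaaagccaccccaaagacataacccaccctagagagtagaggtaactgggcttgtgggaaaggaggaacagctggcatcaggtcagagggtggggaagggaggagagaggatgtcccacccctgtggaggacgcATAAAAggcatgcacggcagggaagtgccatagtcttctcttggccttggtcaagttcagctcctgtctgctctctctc
Krt7: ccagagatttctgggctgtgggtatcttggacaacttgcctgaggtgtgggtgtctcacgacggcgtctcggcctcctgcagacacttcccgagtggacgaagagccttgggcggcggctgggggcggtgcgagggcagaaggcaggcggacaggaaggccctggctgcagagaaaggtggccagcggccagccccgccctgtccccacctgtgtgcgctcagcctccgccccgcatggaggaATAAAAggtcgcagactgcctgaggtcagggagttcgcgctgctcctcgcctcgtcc
Krt8: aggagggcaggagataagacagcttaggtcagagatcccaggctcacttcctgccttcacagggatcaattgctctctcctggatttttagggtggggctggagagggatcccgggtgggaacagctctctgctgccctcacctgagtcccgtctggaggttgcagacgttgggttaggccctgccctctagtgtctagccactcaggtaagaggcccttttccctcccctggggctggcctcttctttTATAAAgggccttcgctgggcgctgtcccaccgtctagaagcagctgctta
Krt18: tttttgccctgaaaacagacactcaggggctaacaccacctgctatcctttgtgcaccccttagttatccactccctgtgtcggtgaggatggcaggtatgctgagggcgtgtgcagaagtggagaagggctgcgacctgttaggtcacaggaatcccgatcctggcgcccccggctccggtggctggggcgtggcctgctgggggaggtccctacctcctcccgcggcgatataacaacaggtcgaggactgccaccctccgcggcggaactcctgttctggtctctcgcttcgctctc

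Motifs were searched on both strands of these windows and of all 32544 distinct promoter windows of the same length. The letters ATAAAA, chosen after the windows were seen, stand 29 bases before the start in both Krt5 and Krt13 and 7 bases before it in Krt7, and 18.4% of all windows hold them. Krt8 holds TATAAA, as 13.6% of all windows do at any place on either strand. In Krt8 it begins 1 base before the annotated start, and the reverse of ATAAAA overlaps it. Krt18 holds neither. The p53 family half-site was found once, 95 bases before the start of Krt5, and 8.36% of all windows hold one. The SP1 letters GGGCGG were found only in Krt7, at 4 places, against 35.9% of all windows. AP-2 letters (GCCNNNGGC) were found in Krt7 and Krt18 (16.7% of all windows), and AP-1 letters (TGANTCA) in Krt13 (7.79% of all windows). Thus no motif of this set was shared by the Krt5 and Krt13 windows alone. These matches describe letters and not bound sites. For Krt14 the listed window lies inside the gene and is not shown. No window was available for Krt4, Krt15, Krt17 or Krt19, so most stratified keratins were not covered.

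Among the simple keratins, Krt8 (NCBI gene 16691), the type II chain of simple epithelia, was the most abundant keratin in both libraries. It had 3283 reads and 70.4 FPKM in the knockdown library and 3358 reads and 82.4 FPKM in the control, a log2 ratio of -0.12 (-0.19 to -0.05). Its type I partner Krt18 (NCBI gene 16668) had 2044 reads and 56.5 FPKM in the knockdown library and 1790 reads and 56.6 FPKM in the control, a log2 ratio of 0.11 (0.02 to 0.20). The sign of Krt18 depended on the scaling between libraries, and it was -0.00 with total counts. Both genes were thus close to level, and neither passed the rule.

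Krt19 (NCBI gene 16669), the smallest type I keratin, found in ducts and airways, had 1788 reads and 60.1 FPKM in the knockdown library and 1460 reads and 56.2 FPKM in the control. Its log2 ratio of 0.21 (0.11 to 0.31) was the highest of the simple keratins and did not pass the rule. Krt7 (NCBI gene 110310), a type II keratin of ducts and glands, had 1634 reads and 39.9 FPKM in the knockdown library and 2368 reads and 66.1 FPKM in the control. It was lower, at a log2 ratio of -0.62 (-0.71 to -0.53), an interval that reaches across the bar of 1.5-fold. By level Krt7 had rank 4 among the 10 keratins in the knockdown library and rank 2 in the control. In the knockdown library its level did not differ from that of Krt15 beyond the counting intervals.

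**Figure D2:**
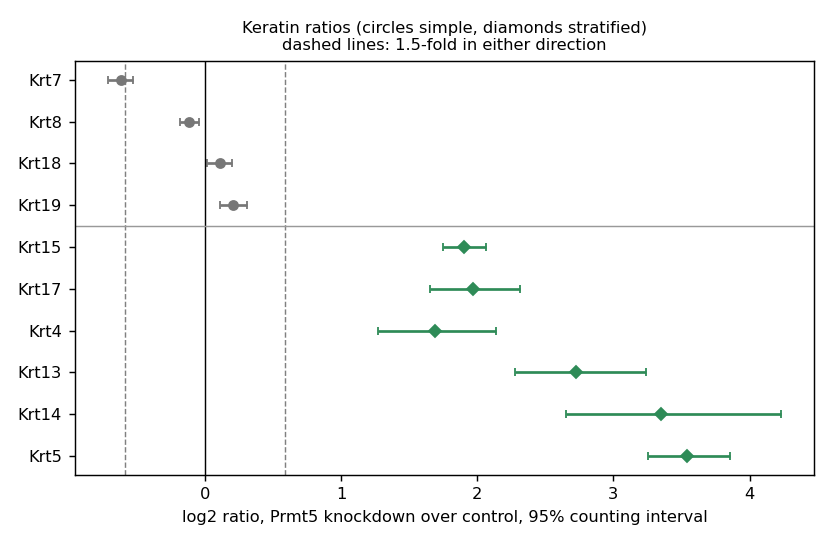
Log2 ratio of Prmt5 knockdown over control for each keratin with its 95% counting interval, simple keratins as circles above the line and stratified keratins as diamonds below it. Dashed lines stand at 1.5-fold in either direction, and all 6 diamonds lie beyond the right one, from 1.69 for Krt4 to 3.54 for Krt5.

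Among the basal-layer keratins, Krt5 (NCBI gene 110308), the type II chain, had 1228 reads and 21.7 FPKM in the knockdown library and 99 reads and 2.002 FPKM in the control. This is 11.6-fold higher, a log2 ratio of 3.54 (3.25 to 3.86). Its type I partner Krt14 (NCBI gene 16664) had 178 reads and 4.85 FPKM in the knockdown library and 16 reads and 0.499 FPKM in the control, a log2 ratio of 3.35 (2.65 to 4.23). The intervals of both partners of the basal filament overlapped. With FPKM and a pseudocount of 1, which understates low genes, the log2 ratio was 2.92 for Krt5 and 1.97 for Krt14.

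Krt15 (NCBI gene 16665), a type I keratin of basal and precursor cells, was the most abundant stratified keratin in both libraries. It had 1662 reads and 37.4 FPKM in the knockdown library and 418 reads and 10.8 FPKM in the control, 3.75-fold higher (log2 1.91, 1.75 to 2.07). Krt17 (NCBI gene 16667), a type I keratin of basal cells and skin appendages, had 400 reads and 9.97 FPKM in the knockdown library and 96 reads and 2.74 FPKM in the control, 3.92-fold higher (log2 1.97, 1.65 to 2.31). The intervals of Krt15 and Krt17 overlapped each other and lay below those of Krt5 and Krt14.

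The pair of upper layers showed unequal ratios. Krt13 (NCBI gene 16663) had 305 reads and 8.28 FPKM in the knockdown library and 43 reads and 1.34 FPKM in the control, 6.63-fold higher (log2 2.73, 2.28 to 3.24, or 1.99 with FPKM and a pseudocount of 1). Krt4 (NCBI gene 16682) had 206 reads and 3.74 FPKM in the knockdown library and 60 reads and 1.25 FPKM in the control, 3.22-fold higher (log2 1.69, 1.27 to 2.14, or 1.08 with that setting). The intervals of these partners did not overlap.

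By level per length, the order in the knockdown library was Krt8, Krt19, Krt18, Krt7, Krt15, Krt5, Krt17, Krt13, Krt14 and Krt4. Neighbours whose counting intervals overlapped there were Krt19 with Krt18, Krt7 with Krt15, Krt17 with Krt13 and Krt14 with Krt4. In the control the order was Krt8, Krt7, Krt18, Krt19, Krt15, Krt17, Krt5, Krt13, Krt4 and Krt14, with overlap between Krt18 and Krt19, Krt17 and Krt5, Krt5 and Krt13, and Krt13 and Krt4. By these FPKM values the 4 simple keratins led in both libraries. In the control a gap separated Krt19 at 56.2 FPKM from Krt15 at 10.8 FPKM. In the knockdown library Krt15 at 37.4 FPKM adjoined Krt7 at 39.9 FPKM, with overlapping intervals. By reads Krt15 (1662) stood above Krt7 (1634) there.

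The make-up of keratin expression inside a library does not depend on scaling between libraries. Stratified keratins held 31.3% (30.5% to 32.1%, exact binomial interval) of the 12728 reads of the 10 genes in the knockdown library and 7.54% (7.02% to 8.08%) of 9708 reads in the control. Per length, they held 27.5% of the summed FPKM in the knockdown library and 6.64% in the control. Krt15 and Krt5 made up most of this, with 11.95% and 6.94% of the summed FPKM in the knockdown library, against 3.85% and 0.715% in the control. Summed over all 10 genes, keratin levels were 313 FPKM in the knockdown library and 280 FPKM in the control.

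**Figure D3:**
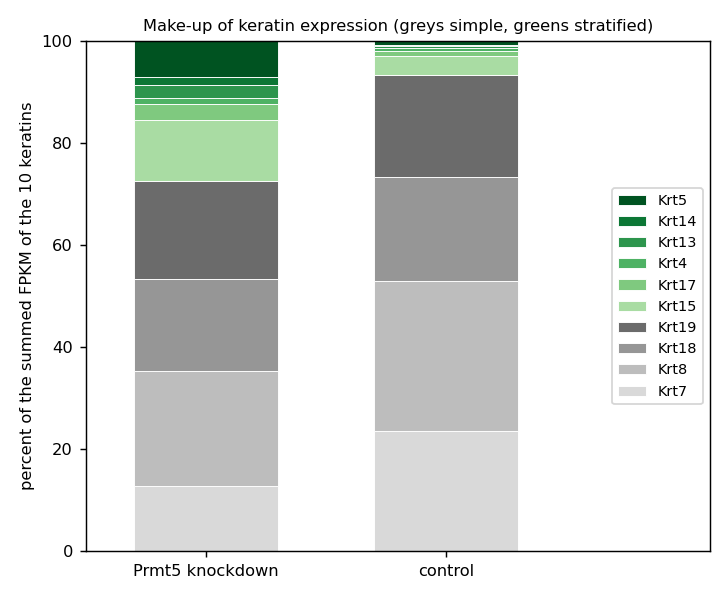
Share of each keratin in the summed FPKM of the 10 genes, in percent, for the Prmt5 knockdown library (left bar) and the control library (right bar), greys for simple and greens for stratified keratins. The green part takes 27.5% of the left bar and 6.64% of the right one.

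The balance of both chain types was compared next, since filaments need them in equal amounts. The type II genes summed to 136 FPKM in the knockdown library and 152 FPKM in the control, and the type I genes to 177 FPKM in the knockdown library and 128 FPKM in the control. Type II genes thus held 43.4% of the summed FPKM in the knockdown library and 54.2% in the control. By reads, without regard to length, they held 49.9% in the knockdown library and 60.6% in the control. Among pairs, the ratio of Krt5 to Krt14 per length was 4.47 (3.82 to 5.26) in the knockdown library and 4.01 (2.35 to 7.29) in the control, which did not differ beyond counting error. The ratio of Krt8 to Krt18 was 1.25 (1.18 to 1.32) in the knockdown library and 1.46 (1.37 to 1.54) in the control. The ratio of Krt7 to Krt19 was 0.663 (0.620 to 0.710) in the knockdown library and 1.18 (1.10 to 1.26) in the control. The authors' length of Krt7, 1586 bases, is 0.225 times the 7049 bases of its joined GENCODE exons. Whether the ratio of Krt7 to Krt19 in the control lies above or below 1 therefore depends on the length used. So do the type II share per length and the place of Krt7 among the other keratins. The authors' length was also 0.620 times the joined exons for Krt19, 0.783 times for Krt13 and 0.808 times for Krt14. Ratios and ranks with these genes depend on the length too. Krt4 stood to Krt13 at 0.452 (0.377 to 0.541) in the knockdown library and at 0.933 (0.620 to 1.41) in the control. Krt5 stood to Krt15 at 0.580 (0.539 to 0.625) in the knockdown library and at 0.186 (0.148 to 0.232) in the control, and to Krt17 at 2.18 (1.94 to 2.44) in the knockdown library and at 0.731 (0.547 to 0.979) in the control.

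**Figure D4:**
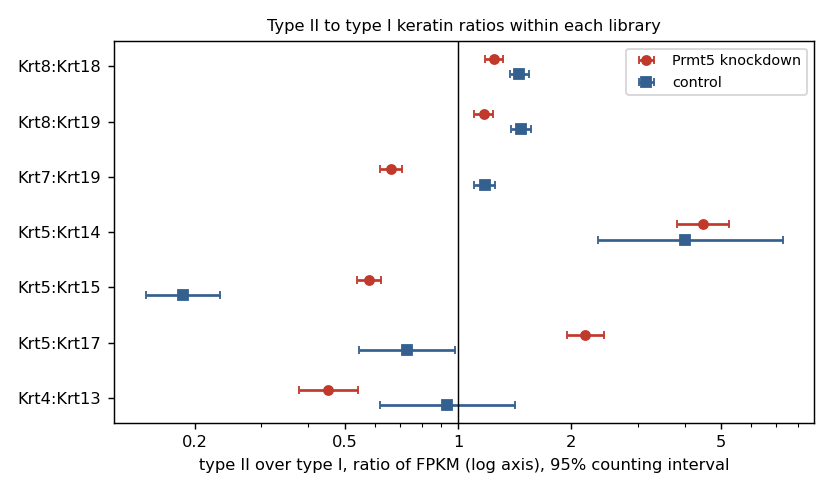
Ratio of a type II to a type I keratin per length within the Prmt5 knockdown library (circles) and the control library (squares), on a log axis with 95% counting intervals and a line at 1. The intervals of both libraries overlap for Krt5 to Krt14 and for none of the other 6 pairs.

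The genes lie in 2 keratin clusters, and neighbouring genes had unlike ratios. On chromosome 11, Krt13 (100117327 to 100121566), Krt15 (100131759 to 100135949), Krt19 (100140810 to 100145926), Krt14 (100203162 to 100207510) and Krt17 (100256215 to 100261029) follow each other, all on the minus strand. Krt19, which did not pass the rule, lies 4.86 kb from Krt15, which was higher. On chromosome 15 lie Krt7 (101412403 to 101427806), Krt5 (101707069 to 101712905), Krt4 (101918535 to 101924735), Krt8 (101996711 to 102004342) and the type I gene Krt18 (102028216 to 102032026). Krt8 and Krt18, the simple pair, are 23.9 kb apart, and Krt4, which was higher, lies 72.0 kb from Krt8.

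Keratin genes share sequence, and how the authors counted reads with several matching places is not given in the sources used here. Of the distinct 50-base stretches of the annotated Krt8 transcripts, 29.7% also occur in another gene, chiefly the pseudogene Krt8-ps, which had 12 reads in the knockdown library and 21 in the control. The share was 13.9% for Krt14, mostly with Krt16 (2 reads in the knockdown library and 0 in the control), 12.2% for Krt5, most often with Krt6a, and 3.99% for Krt17. For the other 6 genes it was under 1%, and 0% for Krt19, Krt4 and Krt13. Exons of Krt7, Krt8 and Krt5 overlap a noncoding gene on the other strand, whose reads cannot be told apart without a strand setting. Levels of Krt8, Krt14 and Krt5 are less certain for this reason. The shares of stretches do not measure how far a level is off, and the part of shared reads in any ratio was not tested.

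Of 43 other protein-coding keratin genes, 14 had no reads in either library, 25 stayed under 50 reads and 4 were measured. Krt20, a type I keratin of gut and bladder lining, had 271 reads in the knockdown library and 8 in the control, a log2 ratio of 4.92 (3.999 to 6.22). Krt80 had 167 reads in the knockdown library and 45 in the control (log2 1.80, 1.33 to 2.32). Krt10, a keratin of the upper epidermis, had 214 and 224 reads and Krt23 61 and 70 reads in the knockdown and control libraries, and neither passed the rule. The epidermal type II keratin Krt1 had 49 reads in the knockdown library and 46 in the control, just under the minimum. Krt6a, a keratin of stressed and appendage epithelium, had 30 reads in the knockdown library and 2 in the control, also under it.

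Other epithelial genes were set beside the keratins, from lists chosen with earlier results of these data known. In a list of general epithelial genes, which act in adhesion, tight junctions and splicing, all 17 measured members were lower and none higher (median log2 -1.64). Over all measured genes 12.3% were lower and 20.7% higher. The adhesion molecule Epcam had 689 reads in the knockdown library and 3348 in the control (log2 -2.36), and the tight junction genes Cldn3 (-2.22) and Cldn6 (-2.17) were lower too. Of these 17 genes, 16 had a ratio below that of Krt7, the lowest keratin. The summed FPKM of the simple keratins was 1.26 times that of the general epithelial list in the knockdown library and 0.464 times in the control. The lung lineage genes Scgb3a2 (-3.61), a secretory cell gene, Shh (-3.44), the hedgehog ligand, and Nkx2-1 (-3.16), the lung lineage factor, were lower still.

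Partner genes of stratified keratins divided. Of 20 measured basal-layer adhesion and regulator genes, 11 were higher, 3 lower and 6 past neither bar, with a median log2 ratio of 0.80. Of all measured genes 20.7% were higher and 12.3% lower, so the count of lower partner genes was close to the share over all genes. Ly6d, a surface marker of stratified epithelium, had 310 reads in the knockdown library and 3 in the control (log2 6.39, 5.05 to 8.89). Perp (3.03) and Pkp1 (3.54), genes of desmosomes, the junctions that anchor keratin filaments, were higher. The basal-layer factor Trp63 had 171 reads in the knockdown library and 41 in the control (log2 1.96). Lower members included Lamb3 (-1.98) and Lama3 (-1.86), laminin chains of the basement membrane that lung epithelium also makes.

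Among 15 measured desmosome and keratin-linker genes, 7 were higher, 2 lower and 6 past neither bar (median log2 0.42). Over all measured genes 20.7% were higher and 12.3% lower. Beside Pkp1, the desmosomal cadherin Dsc2 (2.99) and the plakophilin Pkp2 (2.15) were higher, both of which heart muscle also makes. Pkp3 (-0.95) and the envelope protein Evpl (-0.70) were lower. Genes of the outermost, cornifying layer were mostly at few reads, with 5 of 18 measured. Of these, Lor (1.51) and Tgm1 (1.26) were higher and Evpl lower. Sprr1b and Dsc1 were at 0 reads in both libraries, Flg in the knockdown library alone and Sprr3, Crct1 and Dsg1a in the control alone.

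**Figure D5:**
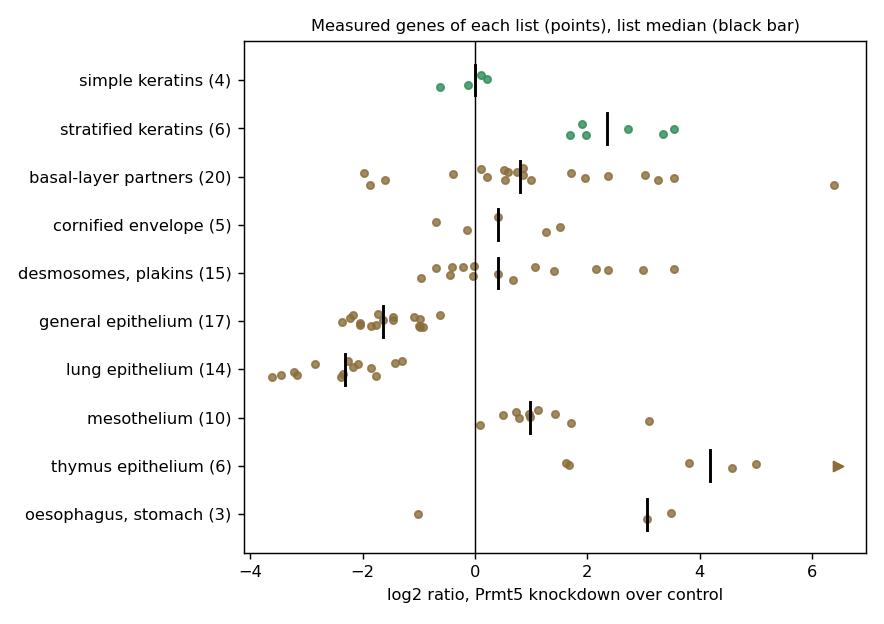
Log2 ratio of Prmt5 knockdown over control for each measured gene of 10 lists (points). Black bars are list medians, and numbers in brackets count the measured genes. The arrowhead is Pax1, which had no control reads and is placed at its ratio against a floor of 3 control reads. The 6 stratified keratins lie to the right of the 4 simple keratins, and all general and lung epithelial genes lie to the left of 0.

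Markers of other keratin-bearing tissues also differed between the libraries, and their part in the keratin ratios was not tested. All 6 thymus epithelium markers were higher, beside 20.7% of all measured genes. Summed levels of these markers were 27.7 FPKM in the knockdown library and 4.42 FPKM in the control, with a median log2 ratio of 4.19. Psmb11, a proteasome subunit of the thymus cortex, had 152 reads in the knockdown library and 4 in the control, and Prss16, a thymus protease, had 646 and 43 reads. Pax1 had 281 reads in the knockdown library and 0 in the control, which with the control set to a floor of 3 reads is at least 88.4-fold higher, a bound that allows for counting error in the control alone. It was the only thymus marker at 0 in either library, and placing it at that bound left the median at 4.19. Of 10 mesothelium markers 8 were higher and none lower, beside 20.7% higher and 12.3% lower over all measured genes. Summed levels were 181 FPKM in the knockdown library and 109 FPKM in the control, and no mesothelium marker was at 0. Msln (3.10), Bnc1 (1.72) and Lrrn4 (1.43) led, and Bnc1 is also a member of the basal-layer list. Of 7 oesophagus and stomach markers 3 were measured, with Barx1 (3.49) and Pitx1 (3.06) higher and Cldn18 (-1.02) lower, and Cldn18 is a lung gene too. Their summed level was 43.7 FPKM in the knockdown library and 32.7 FPKM in the control, Tff1 and Gkn1 were at 0 in both libraries and Gkn2 in the control alone.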

How the data were processed

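The authors deposited raw read counts per gene and FPKM values for the same 41709 genes. Tools named in the submitters' processing notes are HTSeq 0.6.1, TopHat2 2.0.12 and Bowtie2 2.2.3, with the build mm10, and the labels' protocols name TRIZOL and the NEBNext Ultra RNA kit. The sources used here do not give the annotation, the strand setting or the handling of multiply mapping reads. The deposited FPKM equalled the count divided by a whole-number length (within 0.001 bp in all 27674 genes with reads) and by the library total, so they add no measurement beyond the counts. Symbols were matched for 40269 genes through RefSeq on GRCm38.p6.

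Counts were scaled by edgeR 4.0.16 trimmed means of M values (R 4.3.3). Log2 ratios used a prior count of 0.5, and intervals were exact Clopper-Pearson intervals of both counts given their sum, or exact Poisson and binomial intervals (SciPy 1.17.1). Intervals, and the floor of 3 reads, cover counting error only, and PCR copies are not independent molecules. With 1 library per group there was no test. The script was tested on simulated counts. Alternatives were DESeq2 1.42.0 size factors, total counts with and without genes of red blood cells, liver, heart and muscle, FPKM with pseudocounts, the prior count, the read minimum, the ratio and left-out members. All 10 keratins are named; of other keratins up to 8 past the rule, and Krt10, Krt23, Krt1 and Krt6a were added after their values were seen; of each list up to 3 higher and 3 lower genes with the strongest interval bound, with Trp63 added after its value was seen. A gene taken by this rule is not reported here, but counts and medians include it. The members and lists were chosen with earlier results of these data known.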

Additional observations from a re-analysis of the deposited data

How the results depend on the processing

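All 7 calls among the 10 keratins, 6 stratified genes higher and Krt7 lower, held under the 5 other scalings and units and under both other read minima. A ratio of 2 left 6 stratified genes higher and 0 simple genes lower, with 2040 higher and 703 lower genes over all measured genes. Over all settings, the log2 ratio of Krt7 ran from -0.73 to -0.59, Krt8 from -0.23 to -0.09, Krt18 from -0.00 to 0.14, Krt19 from 0.10 to 0.24, Krt4 from 1.08 to 1.72, Krt5 from 2.92 to 3.57, Krt13 from 1.99 to 2.76, Krt14 from 1.97 to 3.38, Krt15 from 1.71 to 1.93 and Krt17 from 1.55 to 1.998. The lowest values of the 6 stratified genes came from FPKM with a pseudocount of 1, which understates the change of low genes. Scaling to total counts shifted the log2 median over measured genes by -0.11, and the share of higher among called genes, 62.7% with the main scaling, was 52.3% with total counts, 52.99% with FPKM at a pseudocount of 0.1 and 74.4% at a ratio of 2. The summed simple keratins stood at -0.23 with total counts and at -0.20 with FPKM at both pseudocounts of 0.1 and 1. The summed stratified keratins stood at 2.204 and 2.15 with FPKM at these pseudocounts and at 2.80 without Krt15. The stratified share of keratin reads was 20.9% in the knockdown library and 3.38% in the control without Krt15, and 11.1% and 2.34% without Krt15 and Krt5, a setting chosen after seeing the data. As a share of FPKM it was 27.5% and 6.64%. No paired analysis was possible because each group has 1 library, and for the same reason no replicate could be left out.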

Other observations

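Intermediate filament genes other than keratins were not uniform. Of 13 measured genes 7 were higher and 3 lower (median log2 1.25), beside 20.7% higher and 12.3% lower over all measured genes. Gfap, the filament of glia, had 350 reads in the knockdown library and 21 in the control (log2 3.94), Prph, a filament of peripheral neurons, had 402 and 111 reads (1.77), and Des, the muscle filament, had 6872 and 1972 reads (1.72). The nuclear lamins Lmnb1 (-0.76) and Lmnb2 (-0.61) and the muscle filament Synm (-0.70) were lower. Vim, the filament of mesenchyme, had 26463 reads in the knockdown library and 21274 in the control and did not pass the rule (0.23, named after its value was seen).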
